A study of Triticum aestivum with 3 samples.

Results

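The deposited wheat small RNA table lists 199 sequences under names that begin with PC, all noted there as new, among 1896 distinct sequences in all. They were taken by the start of the name alone, 1 row for each sequence, and no PC sequence was also listed under another name. The other 1697 sequences carry names built on those of registered miRNAs or their precursors, from wheat (tae), Aegilops (ata) and further species, and 786 of them are also noted as new. What the letters PC stand for was not given in the sources used here. A PC name gives the arm of the precursor (5p or 3p), a serial number and a last number. That last number equalled the reads implied by the values over all pools for 100 of the 199, and was within 10% of them for 115. For the others it was further off, and the reason was not tested.

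The table comes from leaves of wheat seedlings (Triticum aestivum) after 2 days in one of 3 treatments. The first was dithiothreitol together with tauroursodeoxycholic acid (DTT+TUDCA), the second was dithiothreitol alone (DTT), and the third was the control. DTT reduces disulfide bonds, so that proteins misfold in the endoplasmic reticulum. TUDCA, a bile acid, acts as a chemical chaperone and is given to relieve that stress. Doses, cultivar and growth conditions were not given in the sources used here. Each treatment is 1 sample read as 2 RNA pools, both mixed from the biological replicates of that treatment. Whether both pools hold RNA of the same plants is not known here. A pool was therefore treated as a repeat measurement and not as an independent replicate. Paired values are given as pool 1, then pool 2. No p-value between treatments was computed, and every difference given here has no replicate check. In whole leaves, fewer cells of a type and less RNA per cell cannot be told apart.

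Plant miRNAs are cut from the stem of a hairpin precursor by a Dicer-like enzyme. The cut leaves a duplex of a 5p and a 3p strand with short overhangs at the 3′ ends, from which 1 strand is kept in an Argonaute protein. In Arabidopsis, most miRNAs are 21 nt long, begin with U and enter AGO1, whereas 24-nt small interfering RNAs of repeats, cut by DCL3, often begin with A and enter AGO4. Bread wheat holds 3 related subgenomes, A, B and D, so 1 family can have a locus in each. Predicted miRNAs of 1 species are usually young and low, and some predictions turn out to be other small RNAs.

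The 10 most abundant PC sequences are shown first, since they held 58.1% of all PC normalized reads. Letters run 5′ to 3′, T is written as in the table where the RNA has U, and capitals mark the seed (bases 2 to 8).
PC-3p-491_4542: gTCTTGAAtcaaaataattt
PC-3p-2095_1043: aGGGGGACttcttacttaaat
PC-5p-1737_1267: tTCGTCGGacgagcgtgcct
PC-3p-5163_420: aTCGTCCAacagtatcgtctg
PC-3p-4224_513: tCATTAAGcatcatcttcact
PC-5p-3969_547: aAGTATGAgccccgtgga
PC-3p-7824_283: tATTGGGTatttctgtcttta
PC-3p-18550_129: tATTGGGTatttctgtctttaaa
PC-5p-7289_302: aTGAAGAGcgcgggcagcaca
PC-3p-9477_236: aAGATATTgggtatttctgtcttt

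Positions are those of the precursors on TGACv1 wheat scaffolds, as the table gives them, and which genes, exons or introns lie there was not analysed here. PC-3p-491_4542 was placed on the minus strand of scaffold 404175 of chromosome arm 5BL, from 32037 to 32157. PC-3p-2095_1043 was placed on scaffold 569013 of 7AS (minus strand, 119758 to 119862), and PC-5p-1737_1267 on scaffold 094592 of 2AL (minus strand, 8093 to 8182). PC-3p-5163_420 lay on scaffold 158413 of 2DL (minus strand, 98291 to 98458), and PC-5p-3969_547 on scaffold 433777 of 5DL (minus strand, 15641 to 15773). PC-5p-7289_302 lay on scaffold 604102 of 7DL (minus strand, 17542 to 17683), and PC-3p-4224_513 on an assembled sequence with no chromosome.

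A second set of sequences is shown because their pools differed between treatments, as described further on. Each was at least 2-fold apart in a comparison with no overlap between the pools.
PC-5p-73958_33: aTACTCTTggacgattcaga
PC-5p-91031_26: tTGGACGAttcagagacgata
PC-3p-65515_38: gGCTCATAccaggcgctacggc
PC-3p-31820_79: tTGTGATCccaaatttattgat
PC-3p-28671_87: aAGGGCAAtttctttcttgtt
PC-3p-13407_173: tTCTAAGAtccaccgata
PC-3p-125407_17: gCGGCTGAcggtaacgtt
PC-5p-58702_42: tGAATTTGaacatagcatcag
PC-5p-63231_39: cGGAGGGAcggaggaggcc
PC-3p-82968_29: tACGTCAGaggagcctcgtcc
PC-3p-15220_155: cGCGTAGCcggatcgacc
PC-5p-17870_134: tTCGTCGGacgagcgtgcc
PC-5p-97535_24: aTTCTGTAtaaatggact

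PC-5p-73958_33 came from the 2DL precursor of PC-3p-5163_420, and PC-5p-91031_26 from the opposite strand of the same scaffold (98407 to 98536). PC-3p-65515_38 came from the 5DL precursor of PC-5p-3969_547. PC-3p-28671_87 lay on scaffold 406472 of 5BL (minus strand, 36292 to 36360), and PC-3p-31820_79 on scaffold 112070 of 2AS (plus strand, 22622 to 22844).

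The PC sequences were low. Their mean over the 6 pools had a median of 3.02 normalized reads (range 0.172 to 837.5), against a median of 6.78 for all other entries, and 50 of 199 (25.1%) reached a mean of 10, against 721 of 1697 (42.5%). Each value counts whole small RNA reads, so levels of different sequences were compared without a length correction. Whether a read of 1 form was also counted for a like sequence is not known here. In all, 8 PC sequences reached a mean of 100, and PC-3p-491_4542, the highest, ranked at 61 among all 1896 entries. It alone held 23.2% of the PC normalized reads, and the 5 highest held 44.4%. Only 50 PC sequences were above 0 in all 6 pools, and 22 were above 0 in just 1 pool.

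The values above 0 were whole multiples of what 1 read is worth in each pool, and the lowest stood for 2 reads. No PC value stood for 1 read, so a value listed at 0 need not mean that no read was seen. The filter that sets a value to 0 was not given, so no upper limit is put on it here. The PC sequences together came to about 8676 and 2584 reads with DTT+TUDCA, 1646 and 4834 with DTT, and 1637 and 1963 in control. Low members thus rest on few reads, and the 6 pools differ in how many members could be seen. Of the 199, 193 and 107 were above 0 with DTT+TUDCA, 85 and 160 with DTT, and 70 and 97 in control.

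PC-3p-491_4542 had 557 and 387 normalized reads with DTT+TUDCA, 493 and 779 with DTT, and 1563 and 1246 in control. Both control pools were above all 4 treated pools. The next in level, PC-3p-2095_1043, had 663 and 55.7 with DTT+TUDCA, 80.5 and 333 with DTT, and 84.8 and 139 in control. Here the DTT+TUDCA pools spanned the values of all other pools. PC-5p-1737_1267 showed the same arrangement, with 499 and 75.3 with DTT+TUDCA, 200 and 198 with DTT, and 122 and 222 in control.

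PC-3p-4224_513 had 391 and 25.3 normalized reads with DTT+TUDCA, 58.5 and 109 with DTT, and 42.4 and 173 in control. PC-5p-7289_302 had 239 and 18.05 with DTT+TUDCA, 19.9 and 70.6 with DTT, and 45.5 and 56.0 in control. In both, the first DTT+TUDCA pool was the highest of the 6 and the second was the lowest.

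**Figure D1:**
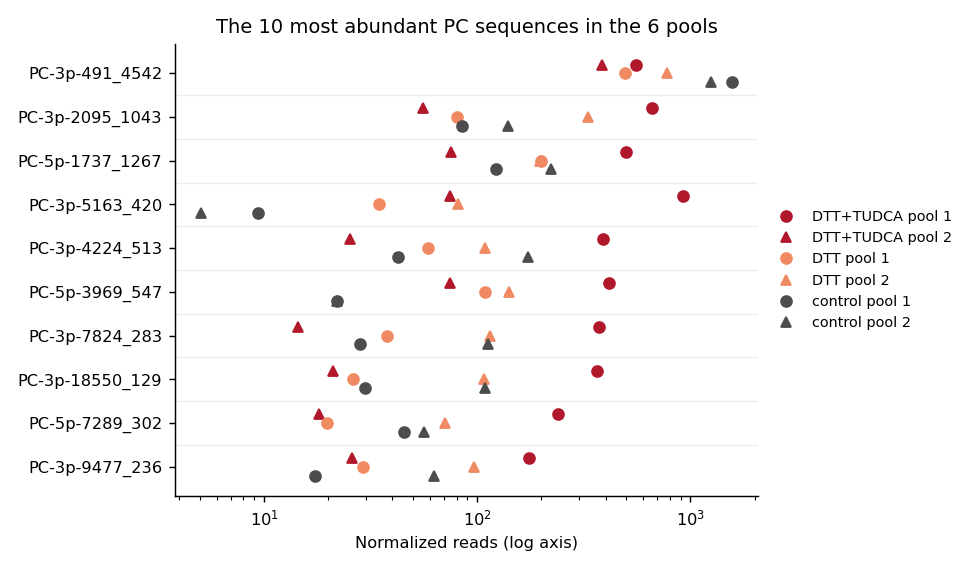
The 10 most abundant PC sequences run down the page by their mean level, with normalized reads on a log x axis. Circles are pool 1 and triangles pool 2 of DTT+TUDCA (red), DTT (orange) and control (grey), with no mean or error drawn. For 9 of the 10 the highest point is DTT+TUDCA pool 1, while PC-3p-491_4542 is highest in control at 1563 and 1246.

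By length, 21 nt was the most frequent class, with 97 of the 199 sequences (48.7%). The others were 23 of 18 nt, 11 of 19 nt, 18 of 20 nt, 16 of 22 nt, 7 of 23 nt, 22 of 24 nt and 5 of 25 nt. Among all other entries 37.5% were of 21 nt and 4.71% of 24 nt, while 11.1% of the PC sequences were of 24 nt (4.30% of those with at least 20 normalized reads over the 6 pools). In the 251 of those other entries with tae or ata names, 63.3% were of 21 nt and 9.56% of 24 nt. Over the means of the 6 pools, 21 nt made 42.1% of the PC reads and 20 nt made 33.9%, with PC-3p-491_4542 alone at 23.2%. The order differed between pools, and 20 nt was above 21 nt in 4 of the 6. The 20-nt sequences held 17.0% and 39.1% of the PC reads with DTT+TUDCA, 44.7% and 33.5% with DTT, and 67.5% and 47.7% in control. The 21-nt sequences held 55.8% and 34.1% with DTT+TUDCA, 28.7% and 42.2% with DTT, and 18.8% and 31.8% in control.

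The classes differed in level. The means of the 24-nt sequences had a median of 2.20 normalized reads, and 1 of the 22 reached 10, namely PC-3p-9477_236 at 67.7. Of the 97 with 21 nt, 26 reached 10, around a median of 3.02. The highest of 18 nt was PC-5p-3969_547 (131), of 19 nt PC-5p-17870_134 (31.0), of 22 nt PC-5p-13886_168 (29.0), of 23 nt PC-3p-18550_129 (110) and of 25 nt PC-3p-8684_257 (46.2).

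The first base differed with the length. Of the 97 PC sequences of 21 nt, 63 (64.9%) began with T, against 355 of 636 (55.8%) among all other entries of 21 nt. Of the 22 PC sequences of 24 nt, 12 (54.5%) began with A and none with C, while the other 24-nt entries had 35 of 80 (43.8%) with A and 16 with C. Of the 23 of 18 nt, 11 began with A. Over all lengths, T opened 95 PC sequences, A 70, C 18 and G 16.

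**Figure D2:**
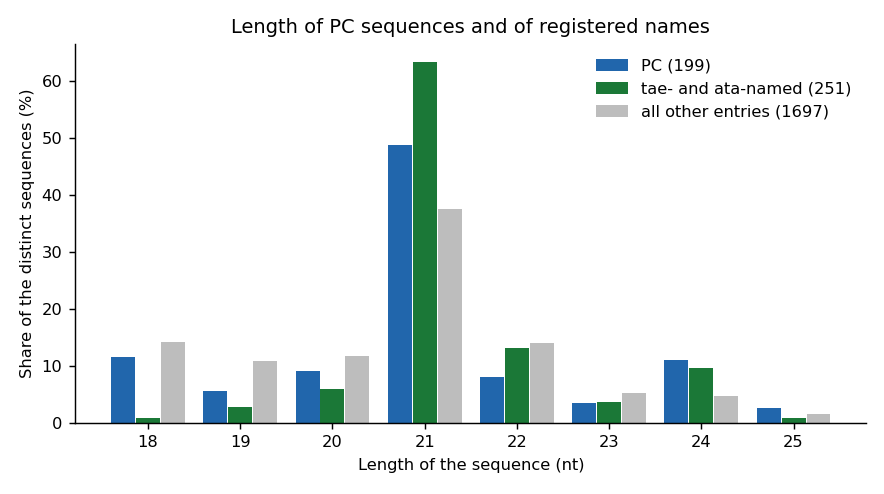
Bars show the share of distinct sequences (y axis, %) at each length in nt (x axis) for the 199 PC sequences (blue), the 251 entries with tae or ata names (green) and all 1697 other entries (grey). PC sequences peak at 21 nt with 48.7%, and the next classes are 18 nt with 11.6% and 24 nt with 11.1%.

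The arms were near balance in number, with 106 sequences from 3p (53.3%) and 93 from 5p. In normalized reads 3p held 68.0% of the PC total, the 23.2% of PC-3p-491_4542 included. On scaffolds that name a chromosome, 56 of 180 sequences lay in subgenome A, 51 in B and 73 in D (40.6%). All other entries so placed had 391, 392 and 447 of 1230, with D at 36.3%. Among placed PC sequences with at least 20 normalized reads over the 6 pools, 30 of 87 (34.5%) lay in D. In normalized reads D held 27.8% of the placed PC total, against 69.5% for all other entries. Each sequence was counted at the 1 place listed for it. Some lie wholly within a longer PC sequence placed in another subgenome, as PC-5p-17870_134 (2DL) does within PC-5p-1737_1267 (2AL). The counts and shares thus describe listed places and do not show where the reads came from. Chromosomes 5D and 7D held the most PC sequences, 15 and 14, and 1A the fewest, 3. The remaining 19 lay on 3 scaffolds without a chromosome, 11 assembled sequences and 5 transcripts. By strand, 115 lay on plus and 84 on minus.

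The 199 sequences came from 164 precursor positions with a median span of 118.5 bases (56 to 257). In 35 of these both arms were in the table, which gives 70 sequences, and 129 had 1 arm only. The 2 arms were paired with RNAduplex, which finds the best pairing between 2 strands. The duplexes had a median of 17 base pairs (4 to 20), with at least 15 in 21 of the 35 and 10 or fewer in 7. The precursor sequences were not used here, so this pairing does not test the hairpin.

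A 3′ overhang of 2 bases at both ends, the form a Dicer-like cut leaves, was found in 5 of the 35 duplexes, all of them with at least 15 pairs. Of these the most abundant are shown, with the pair of PC-3p-4224_513 for contrast.
PC-5p-7289_302: aTGAAGAGcgcgggcagcaca
PC-3p-298050_5: tGCTGCCCgcgctcttcatgg
PC-5p-5554_392: tGGTCTGTgtttgtttcaaac
PC-3p-665804_2: tTGAAACGaaaacagaccaac
PC-5p-26177_95: tTTCTGAAgggtttatcgagg
PC-3p-142367_15: tCGATGAAaccttcggaaatc
PC-5p-383580_4: tGGGGTGAaggcgatgcttaa
PC-3p-4224_513: tCATTAAGcatcatcttcact

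The arms of these duplexes differed widely in level. PC-5p-5554_392, on scaffold 456587 of 5DS (minus strand, 93450 to 93584), had 251 and 14.95 normalized reads with DTT+TUDCA, 11.5 and 69.8 with DTT, and 9.42 and 28.8 in control. Its partner PC-3p-665804_2 was above 0 only in DTT+TUDCA pool 1, at 2.13. The 5p mean was 181 times the 3p mean, the widest ratio of the 35. PC-5p-7289_302 (mean 74.8) stood 78.3 times above PC-3p-298050_5, with 19 base pairs between them. PC-5p-383580_4 and PC-3p-4224_513 had 17 pairs, no 3′ overhang of 2, and a mean of 1.59 against 133.

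Over the 35 precursors, the stronger arm was 5p in 22 and 3p in 13. The ratio of the arms had a median of 10.04 (1.35 to 181), reached 10 in 18 and stayed under 2 in 5. Both of the most abundant pairs had fewer than 15 base pairs. PC-5p-73958_33 and PC-3p-5163_420 had 14 pairs with offsets of 5 and 6 bases, and PC-5p-3969_547 and PC-3p-65515_38 had 9 pairs.

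**Figure D3:**
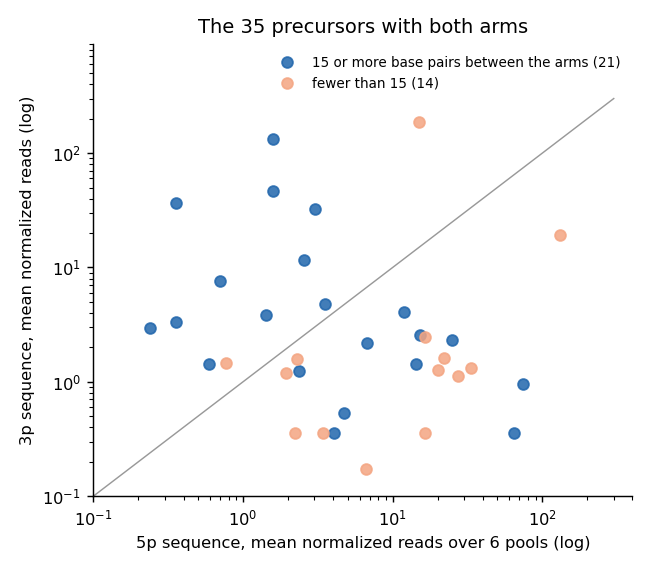
Each point is 1 of the 35 precursors with both arms, with the mean normalized reads over 6 pools of the 5p sequence on the x axis and of the 3p sequence on the y axis, both log. Blue points have at least 15 base pairs between the arms (21) and orange points fewer (14). The line marks equal levels, and most points lie far from it, at a median ratio of 10.04.

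Another pair of precursors had arms whose letters are also known, as background, from the end of plant 18S ribosomal RNA. PC-5p-10739_211 has the letters of PC-5p-24591_100 without the first 2 bases. No ribosomal sequence was at hand to match any of these arms.
PC-5p-10739_211: aCAAGGTTtccgtaggtg
PC-5p-24591_100: tAACAAGGtttccgtaggtg
PC-3p-274921_6: cCTTCGGAaggatcattg
PC-3p-846791_2: cCTGCGGAaggatcactg

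PC-5p-10739_211 (6BS, scaffold 514372) had 68.2 and 28.9 normalized reads with DTT+TUDCA, 28.2 and 23.0 with DTT, and 15.7 and 37.3 in control. PC-5p-24591_100 (4DL, scaffold 343088) had 30.9 and 11.3 with DTT+TUDCA, 18.8 and 10.8 with DTT, and 4.71 and 22.1 in control. The pools of the 3 treatments overlapped for both. Their 3p partners had means of 1.32 and 0.355.

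Precursors overlapped on opposite strands at 5 places, which hold 16 PC sequences. On scaffold 604102 of 7DL, the minus-strand precursor of PC-5p-7289_302 overlapped a plus-strand one by 46 bases. The plus-strand 5p sequence, PC-5p-72239_34, has the letters of PC-5p-7289_302 without the first base. It had 21.3 and 2.06 normalized reads with DTT+TUDCA, 3.13 and 2.88 with DTT, and 7.85 and 3.39 in control. The longer form, PC-5p-7289_302, was the higher in every pool. Since the shorter form lies wholly within it, these values do not tell which strand the shorter reads came from. The 2DL place is described with the comparisons, and the remaining places lay on 3AS, 4AS and 6DL.

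Many PC sequences were forms of one another. With at least 16 shared bases and at most 2 mismatches, 84 of the 199 fell into 28 groups, the largest of 10, 9 and 5 members, and 115 stood alone. There were 180 distinct seeds, and 12 seeds were shared by 31 sequences. A pair of seeds had 4 members each, TAGTTTT and TCGTCGG, and their members are shown to compare the ends.
PC-3p-8684_257: aTAGTTTTttctacgacactttaga
PC-3p-74206_33: aTAGTTTTttctacgacactttaaa
PC-3p-151192_13: aTAGTTTTttctacgacactttag
PC-3p-243543_7: aTAGTTTTttctacgaca
PC-5p-1737_1267: tTCGTCGGacgagcgtgcct
PC-5p-17870_134: tTCGTCGGacgagcgtgcc
PC-5p-134466_16: tTCGTCGGagcagcgtgcctggc
PC-5p-252546_7: tTCGTCGGagcagcgtgcctgg

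PC-3p-8684_257 (4AS, scaffold 306373) was the highest with the first seed, at 131 and 8.77 normalized reads with DTT+TUDCA, 13.6 and 67.0 with DTT, and 11.0 and 45.8 in control. The other members of that seed had means of 3.82 to 7.56 and lay on 1DS and 6DL. With the second seed, PC-5p-17870_134 lacks only the last base of PC-5p-1737_1267. Its mean of 31.0 was below the 219 of the longer form, and it was placed on 2DL, not 2AL.

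A listed form of the wheat-lineage miRNA miR9774, tae-miR9774_L+2, had a mean of 7948 normalized reads and shared an exact stretch of at least 16 bases with 10 PC sequences. The table notes it as different from the registered sequence, and L+2 in its name marks 2 bases added at the 5′ end. The 10 lie on 8 scaffolds and held 13.9% of the PC normalized reads, and 9 of them are in the largest group of like PC sequences. The listed form and 5 of the 10 are shown so that the shift of the 5′ end, and with it of the seed, can be read.
tae-miR9774_L+2: aACAAGATattgggtatttctgtc
PC-3p-9477_236: aAGATATTgggtatttctgtcttt
PC-3p-22035_111: aGATATTGggtatttctgtcttt
PC-3p-7654_288: aTATTGGGtatttctgtcttt
PC-3p-7824_283: tATTGGGTatttctgtcttta
PC-3p-11082_205: aTTGGGTAtttctgtcttta

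The 10 PC sequences start 2 to 8 bases inside this listed form, the added bases included, and all 10 run past its 3′ end. Their sums were 1593 and 120 normalized reads with DTT+TUDCA, 188 and 595 with DTT, and 108 and 409 in control. The listed form tae-miR9774_L+2 had 20800 and 1302 with DTT+TUDCA, 1877 and 14292 with DTT, and 1568 and 7849 in control. In both, pool 1 was the higher of DTT+TUDCA and pool 2 the higher of DTT and of control.

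PC-3p-7824_283 and PC-3p-18550_129 differ by 2 bases at the 3′ end and had nearly the same values in the 6 pools. PC-3p-7824_283 had 373 and 14.4 normalized reads with DTT+TUDCA, 37.6 and 114 with DTT, and 28.3 and 112 in control. PC-3p-18550_129 had 364 and 21.1 with DTT+TUDCA, 26.1 and 107 with DTT, and 29.8 and 109 in control. They were placed on 1BS and on 4AL.

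Besides these 10, another 16 of the 199 lay within the limits of likeness of a differently named entry on the same strand, and 22 did on either strand. Of these, 4 were near miR9674 or miR5064 entries, among them PC-5p-58702_42, which is 2 mismatches from ata-miR9674b-3p over its whole length. A further 7 were near the miR1117 to miR1139 entries, which are known from wheat repeats. PC-3p-193453_10 was 1 mismatch from an ata-miR393-3p form, and PC-3p-742312_2 was 1 mismatch from a form of tae-MIR9672b-p3. Their means were 1.55 and 0.172 normalized reads, against 220 and 458 for those entries.

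The PC share of a pool varied more within DTT+TUDCA than between treatments. It was 1.36% and 0.213% with DTT+TUDCA, 0.269% and 0.642% with DTT, and 0.389% and 0.594% in control. Without PC-3p-491_4542 it was 1.28% and 0.151% with DTT+TUDCA, 0.192% and 0.499% with DTT, and 0.152% and 0.372% in control. The 2 pools of a treatment belong to 1 listed sample, but whether they hold RNA of the same plants is not known here. What this spread reflects was not tested.

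For 168 of the 199 PC sequences (84.4%) the highest of the 6 values was in DTT+TUDCA pool 1, against 769 of 1697 other entries (45.3%). Among PC sequences measured in DTT+TUDCA, 61 of 65 differed at least 2-fold between its pools, with a median ratio of pool 1 to pool 2 of 10.9, and 564 of 817 other entries did, with a median of 2.73. Between the DTT pools 28 of 42 PC sequences differed so far (median ratio 0.405), against 207 of 656 other entries (0.937). Between the control pools 25 of 39 PC sequences did (0.436), against 161 of 644 other entries (0.983). A list of wheat-lineage miRNAs, miR5048 to miR5086 with miR9652 to miR9863 (156 entries), moved in the same way, at 13.9% and 1.10% with DTT+TUDCA, 1.70% and 6.46% with DTT, and 1.57% and 5.11% in control. Whether something in the making of the pools has a part in this was not tested.

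Relative to the reads of that list, all PC sequences together came to 9.74% and 19.4% with DTT+TUDCA, 15.8% and 9.95% with DTT, and 24.8% and 11.6% in control. Without PC-3p-491_4542 they came to 9.16% and 13.8% of its reads with DTT+TUDCA, 11.3% and 7.72% with DTT, and 9.70% and 7.27% in control. The list of leaf-abundant families (miR156, miR159, miR166, miR167, miR168, miR172 and miR396) took 53.4% and 70.4% of the DTT+TUDCA pools, 70.9% and 62.2% of the DTT pools, and 68.9% and 62.8% of the control pools. As background, these families are abundant in plant leaves. The 5 entries of the reproductive miR2118 and miR2275 took at most 0.00938% of a pool. The 13 entries with animal names took at most 0.0166%, except in DTT pool 2, where they took 0.285%.

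**Figure D4:**
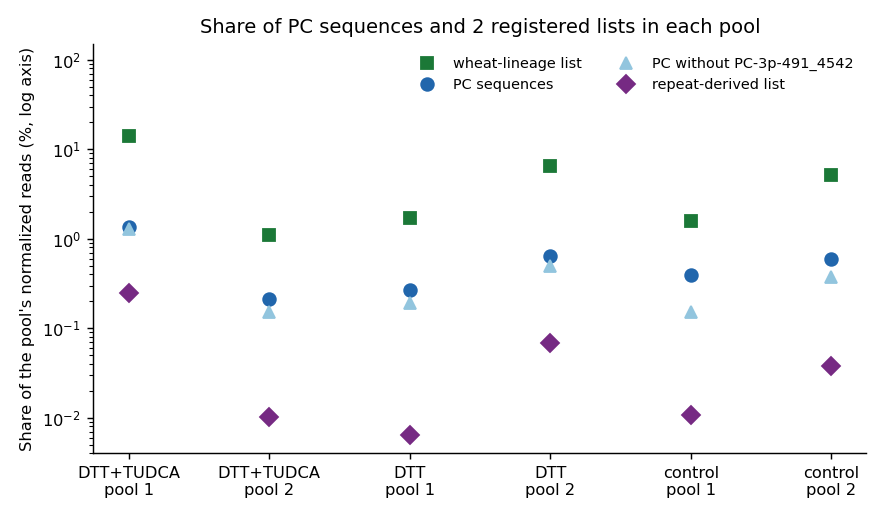
The y axis gives the share of a pool's normalized reads (%, log axis) and the x axis the 6 pools. Points are the PC sequences (blue circles), the same without PC-3p-491_4542 (light triangles), the wheat-lineage list (green squares) and the list miR1117 to miR1139 (purple diamonds). All 4 sets are highest in DTT+TUDCA pool 1, where PC sequences took 1.36%.

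For each comparison the 2 pools of a treatment were summed, sequences with at least 20 normalized reads over both treatments were counted as measured, and ratios are log2 of the sums plus 1. A sequence is called higher or lower from 2-fold, and its pools are called apart where they do not overlap between treatments. DTT+TUDCA and DTT were each set against the same control pools, and DTT also serves as the comparator of DTT+TUDCA, so the 3 comparisons are not independent.

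DTT+TUDCA against control asks what the combined treatment leaves different from untreated leaves. Of 81 measured PC sequences, 54 (66.7%) were higher and 3 lower, against 41.4% higher and 6.05% lower over all 1107 measured entries. The median log2 ratio was 1.43 for PC sequences and 0.66 for all entries. With the pools apart, 10 PC sequences were higher (12.3%) against 13.6% of all entries, and 3 were lower (3.70%) against 5.24%. Of those measured, 5 PC sequences and 48 of all entries reached the floor through DTT+TUDCA alone, with 0 in both control pools. Their call of higher was fixed by the floor, and their pools were apart wherever both DTT+TUDCA pools were above 0. All 5 PC sequences were among the 10, so that count is partly set by the floor. The first count rested on 1 pool, since without DTT+TUDCA pool 1 only 4 of 50 were higher and 23 lower, and without DTT+TUDCA pool 2 109 of 121 were higher. With control pool 1 left out 5 were lower (5.95%, against 7.61% of all entries). With control pool 2 left out 5 were lower as well (6.25%, against 8.99%). Scaled to the wheat-lineage list, 9 of 58 were higher (15.5%) and 7 lower (12.1%), against 19.8% and 11.5% of all entries. The median of all entries then moved to 0.26.

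PC-3p-5163_420 was the most abundant of those higher with the pools apart. It had 926 and 74.8 normalized reads with DTT+TUDCA, 34.5 and 81.4 with DTT, and 9.42 and 5.09 in control. Every pool of either treatment was above both control pools. The sum was 64.6-fold higher in DTT+TUDCA than in control, 9.71-fold without DTT+TUDCA pool 1 and 17.3-fold when scaled to the wheat-lineage list.

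The 2DL place holds 3 more PC sequences, each with its highest value in DTT+TUDCA pool 1. PC-5p-73958_33, its 5p partner, had 79.9 and 6.70 normalized reads with DTT+TUDCA, 0 and 2.88 with DTT, and was listed at 0 in both control pools. PC-5p-91031_26 of the opposite strand had 20.2 and 2.58 with DTT+TUDCA, 0 and 1.44 with DTT, and was listed at 0 in both control pools. PC-3p-502135_2 had 2.13 in DTT+TUDCA pool 1 and was listed at 0 in the other 5 pools.

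A further 3 named sequences were listed at 0 in both control pools, so no fold is given. PC-5p-58702_42 had 37.3 and 2.06 normalized reads with DTT+TUDCA, and 3.13 and 7.92 with DTT. PC-5p-63231_39 had 26.6 and 1.55 with DTT+TUDCA, and 2.09 and 6.48 with DTT. PC-3p-82968_29 had 21.3 and 1.55 with DTT+TUDCA, and 3.13 and 2.16 with DTT. In all 3 the second DTT+TUDCA pool was below both DTT pools.

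PC-5p-3969_547 and its partner PC-3p-65515_38 were also among the 10. PC-5p-3969_547 had 416 and 74.3 normalized reads with DTT+TUDCA, 109 and 141 with DTT, and 21.97 and 22.06 in control. The control pools were close together and below all others, and the sum was 10.9-fold higher in DTT+TUDCA than in control (3.32-fold without DTT+TUDCA pool 1, 4.84-fold when scaled to the wheat-lineage list).

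The 3 lower in DTT+TUDCA all had their pools apart. PC-3p-491_4542 was 2.97-fold lower than in control, and 2.52-fold to 3.63-fold lower with any 1 pool left out. PC-3p-13407_173 had 39.4 and 9.80 normalized reads with DTT+TUDCA and 40.8 and 69.6 in control, 2.22-fold lower, with the nearest pools almost touching. It was 5.41-fold lower without DTT+TUDCA pool 1, 1.40-fold without DTT+TUDCA pool 2, 1.65-fold without control pool 2 and 3.68-fold when scaled to the wheat-lineage list. PC-3p-125407_17 had 3.20 and 0 with DTT+TUDCA, 0 and 0 with DTT, and 14.1 and 8.49 in control, which stands for few reads in each.

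**Figure D5:**
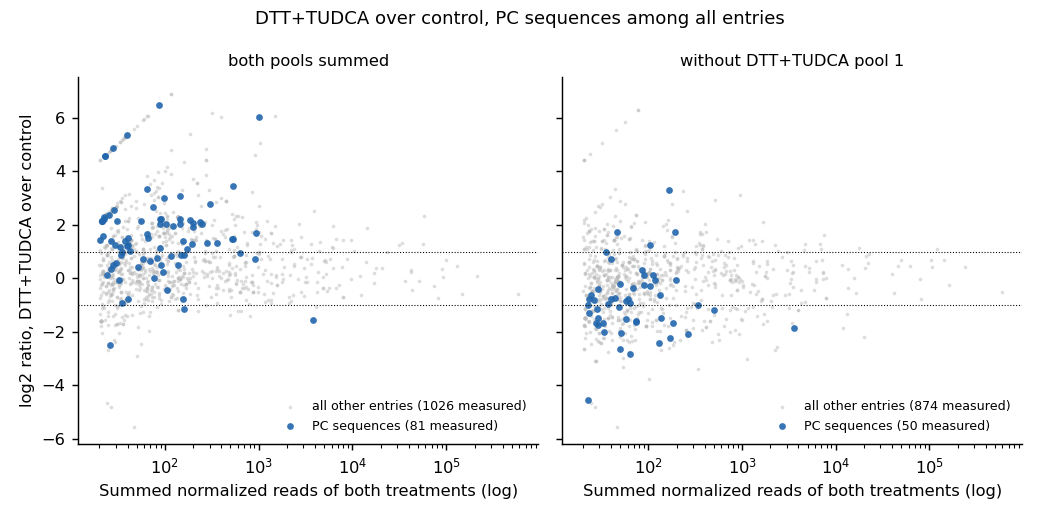
Points are measured sequences, with the summed normalized reads of both treatments on a log x axis and the log2 ratio of DTT+TUDCA over control on the y axis. Blue points are PC sequences and grey points all other entries, and dotted lines mark 2-fold. With both pools 54 of 81 PC sequences lie above the upper line, and without DTT+TUDCA pool 1 the count is 4 of 50.

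DTT against control asks what the stress agent alone changes. Of 59 measured PC sequences, 8 (13.6%) were higher and 6 (10.2%) lower, against 16.8% and 10.2% of all 958 measured entries. The median log2 ratio was 0.14 for PC sequences and 0.08 for all entries. With the pools apart, 4 were higher (6.78%, against 13.3% of all) and 5 lower (8.47%, against 8.14%). With all pools in, the PC share was thus near or under the background in each direction, but this changed with single pools left out. Leaving out a pool moved the number higher to 26 of 65 (without DTT pool 1), 4 of 55 (without DTT pool 2) and 25 of 54 (without control pool 2). The number lower moved to 18 of 55 without DTT pool 2 and 11 of 61 without control pool 1.

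PC-3p-5163_420 was 7.53-fold higher in DTT than in control, and 4.51-fold to 10.6-fold higher with any 1 pool left out. PC-5p-3969_547 was 5.57-fold higher, within 4.85-fold to 6.29-fold. For these 2 the 2-fold limit held under every pool left out and every scaling tried. With pools that do not overlap, leaving out a pool could not change the direction.

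The other 2 higher in DTT were among the 10 that share a stretch with tae-miR9774_L+2. PC-3p-11082_205 had 118 and 12.4 normalized reads with DTT+TUDCA, 10.4 and 49.0 with DTT, and 6.28 and 8.49 in control. It was 3.83-fold higher in DTT than in control, and 1.39-fold without DTT pool 2. PC-3p-7654_288 had 151 and 10.8 with DTT+TUDCA, 31.3 and 59.0 with DTT, and 11.0 and 27.2 in control. It was 2.33-fold higher, and 1.63-fold without DTT pool 2 and 1.65-fold without control pool 1.

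Of the 5 lower in DTT, PC-3p-31820_79 and PC-3p-28671_87 kept at least 2-fold with any pool left out. PC-3p-31820_79 had 15.98 and 28.9 normalized reads with DTT+TUDCA, 4.18 and 7.20 with DTT, and 45.5 and 15.3 in control, and was 4.99-fold lower in DTT than in control (2.55-fold without control pool 1). PC-3p-28671_87 had 9.59 and 48.0 with DTT+TUDCA, 14.6 and 11.5 with DTT, and 54.9 and 44.1 in control, and was 3.69-fold lower. For both, the DTT pools lay below the control pools, and for PC-3p-31820_79 they also lay below the DTT+TUDCA pools.

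PC-3p-491_4542 was 2.21-fold lower in DTT than in control. The ratio was 1.80-fold without DTT pool 1 and 1.96-fold without control pool 1, so its call rests on those pools. PC-3p-13407_173, at 30.3 and 15.1 normalized reads with DTT, was 2.40-fold lower than in control, and 1.81-fold without DTT pool 2, 1.78-fold without control pool 2 and 1.74-fold when scaled to the wheat-lineage list. PC-3p-125407_17 was listed at 0 in both DTT pools. It reached the floor through control alone, so its call of lower was fixed by the floor.

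DTT+TUDCA against DTT asks what the chaperone adds under the stress agent. Of 83 measured PC sequences, 52 (62.7%) were higher and 3 lower, against 40.2% and 3.46% of all 1099 measured entries, with median log2 ratios of 1.23 and 0.72. With the pools apart, 7 were higher (8.43%, against 7.55% of all) and 1 lower (1.20%, against 1.82%). Without DTT+TUDCA pool 1, 5 of 54 were higher (9.26%) and 34 lower (63.0%), against 5.56% and 22.6% of all entries. The number higher was 114 of 125 (91.2%) when DTT+TUDCA pool 2 was left out, against 58.9% of all entries. It was 32 of 92 (34.8%) when DTT pool 1 was left out, against 32.9% of all entries. Scaled to the wheat-lineage list, 8 of 58 were higher (13.8%) and 6 lower (10.3%), against 7.8% and 6.39% of all entries.

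Among the 7, PC-3p-31820_79 was 3.70-fold higher in DTT+TUDCA than in DTT, and 2.66-fold to 4.90-fold with any 1 pool left out. Both DTT+TUDCA pools were above both DTT pools, and the larger value was in pool 2. PC-3p-65515_38 had 69.3 and 18.05 normalized reads with DTT+TUDCA, 7.31 and 10.1 with DTT, and 0 and 10.2 in control. It was 4.80-fold higher in DTT+TUDCA than in DTT, and 2.02-fold without DTT+TUDCA pool 1.

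PC-5p-73958_33 was 22.6-fold higher in DTT+TUDCA than in DTT, against 2.88 normalized reads in a single DTT pool, and PC-5p-91031_26 was 9.76-fold higher against 1.44. Without DTT+TUDCA pool 1 neither reached the floor of 20. PC-3p-5163_420 of the same place was 8.57-fold higher, but its pools overlapped and the ratio was 1.29-fold without DTT+TUDCA pool 1. PC-5p-17870_134 had 91.6 and 23.2 with DTT+TUDCA, 13.6 and 15.1 with DTT, and 17.3 and 25.5 in control. It was 3.90-fold higher in DTT+TUDCA than in DTT, and 1.60-fold without DTT+TUDCA pool 1.

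PC-3p-15220_155 had 81.0 and 23.2 normalized reads with DTT+TUDCA, 11.5 and 23.0 with DTT, and 7.85 and 49.2 in control. It was 2.96-fold higher in DTT+TUDCA than in DTT, with the second pools nearly equal, and 1.33-fold without DTT+TUDCA pool 1. The single sequence lower with the pools apart was PC-5p-97535_24, at 6.39 and 0 with DTT+TUDCA, 8.36 and 7.20 with DTT, and 0 in both control pools. It was 2.24-fold lower in DTT+TUDCA than in DTT, and 1.20-fold without DTT+TUDCA pool 2. Scaled to the wheat-lineage list, the ratios of DTT+TUDCA to DTT became 10.7-fold for PC-5p-73958_33, 2.66-fold for PC-3p-65515_38, 2.02-fold for PC-5p-17870_134 and 1.88-fold for PC-3p-15220_155, all higher, and 10.1-fold lower for PC-5p-97535_24.

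The 31 PC sequences whose highest value lay outside DTT+TUDCA pool 1 were not spread evenly over the lengths. They took in 11 of the 23 with 18 nt, 9 of the 97 with 21 nt and 1 of the 22 with 24 nt. Of all other entries 45.3% were highest in that pool, and these were not split by length. Many of the 31 rest on few reads, so that their highest pool is uncertain. A mean of at least 10 was reached by 8 of the 31, near the 25.1% of all PC sequences. Among the 8 were PC-3p-491_4542, PC-3p-13407_173, PC-3p-28671_87 and PC-3p-31820_79. Those 4 are the more abundant of the 5 that were lower in DTT than in control with the pools apart. All 4 were highest in a control pool, so both descriptions draw on the same values.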

How the data were processed

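Per the labels' protocols, libraries of the 6 pools (3 samples, 2 pools each) were prepared with TruSeq small RNA kits and sequenced to 50 bases from 1 end on an Illumina instrument. The authors deposited 1 table whose 6 value columns are signal, namely normalized reads, per the file headers. The aligner, the prediction tool, the filters and the scaling rule were not given in the sources used here. Between 95.1% and 97.3% of the values above 0 in a pool, and all PC values, were whole multiples of 1 step (tolerance 0.01 reads), which gave 330652 to 1211765 reads per pool. Some sequences hold fractions of a read, and each treatment is 1 sample, so count tests were not used.

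Rows were reduced to distinct sequences. Ratios used summed pools, a floor of 20 and a pseudocount of 1, with Python 3.11.15, pandas 2.3.3 and numpy 2.4.6. Arms were paired with ViennaRNA 2.7.2. The counting was tested on simulated tables. PC names were examined by this rule: the 10 highest means, up to 6 higher and 6 lower per comparison with pools apart, the highest of each length, the 5 most abundant pairs of arms and the largest seed groups (36 sequences). Alternatives were other scalings, floors and pseudocounts, merged entries and each pool left out. Members and lists were chosen with earlier results of these data known.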

Additional observations from a re-analysis of the deposited data

How the results depend on the processing

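No paired analysis was possible because each treatment is 1 sample and the pool numbers do not tie pools across treatments. For DTT+TUDCA against control, the number of PC sequences higher (54) became 35 with median-of-ratios scaling, 149 with no floor, 21 with a floor of 100 and 9 when scaled to the wheat-lineage list, an alternative chosen after seeing the data, and ranged from 4 to 109 with each pool left out. The number lower (3) became 5 with no floor and 7 with that list, and ranged from 3 to 23 with each pool left out. For DTT against control, the number higher (8) became 74 with no floor, 5 with a floor of 100 and 4 with 1 entry per group of like sequences (also chosen after seeing the data), and ranged from 4 to 26 with each pool left out. The number lower (6) became 20 with no floor and 3 with a floor of 100, and ranged from 6 to 18. For DTT+TUDCA against DTT, the number higher (52) became 31 with median-of-ratios scaling, 134 with no floor, 22 with a floor of 100 and 8 with the wheat-lineage list, and ranged from 5 to 114. The number lower (3) became 8 with no floor, 0 with a floor of 100, 1 with a pseudocount of 5 and 6 with that list, and ranged from 2 to 34. Shares over all entries moved too. Those higher in DTT+TUDCA than in control were 34.1% with median-of-ratios scaling, 48.6% with no floor, 42.8% with a floor of 100 and 19.8% with that list. For DTT+TUDCA against DTT the same settings gave 28.7%, 42.4%, 39.0% and 7.8%. For DTT against control, 30.2% were higher with no floor and 17.1% with a floor of 100. A higher floor tests fewer sequences, and no floor adds ratios that rest on few reads. The cause of the other shifts was not tested. The share of 24 nt became 4.30% among sequences with at least 20 normalized reads over the 6 pools. For the single sequences named with a ratio, other scalings, the higher pseudocount and each pool left out made 200 cases. Of these, 168 stayed at least 2-fold, 15 fell under 2-fold, 0 reversed, and in 17 the sequence was below the floor of 20 and has no value. These sequences were chosen for pools that do not overlap. Leaving out a pool or raising the pseudocount therefore could not reverse a ratio, and the 0 says nothing for those cases. The other floors and the merged entries cannot change the ratio of 1 sequence. The median log2 ratio of all entries for DTT+TUDCA against control was 0.45 with median-of-ratios scaling, against 0.66 as deposited.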

Other observations

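A trio of PC sequences was above 0 in DTT pool 2 alone and stood there at more than 10 normalized reads. They were chosen after their values were seen. PC-3p-132333_16 had 23.8 normalized reads in DTT pool 2, PC-3p-173200_11 had 15.1 and PC-3p-141170_15 had 10.8, and all 3 were listed at 0 in both DTT+TUDCA pools, in DTT pool 1 and in both control pools. PC-3p-173200_11 has the letters of PC-3p-132333_16 without the first base. In the same pool the 13 entries with animal names took 0.285% of the normalized reads, against at most 0.0166% in any other pool. Whether these values are related was not tested.
PC-3p-132333_16: aATCTCTActaagacttcca
PC-3p-173200_11: aTCTCTACtaagacttcca
PC-3p-141170_15: tCAAAGGActtggcggta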
